A study of Mus musculus with 19 samples.

Results

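Activated regulatory T cells (aTregs) without the NF-kB subunit p65 were set directly against aTregs without the subunit c-Rel. The comparison rests on 4 RNA sequencing libraries, 2 labelled p65KO and 2 labelled c-RelKO, of the 19 libraries in the study. It covers the 14818 genes with library values in the deposited table, of which 10656 passed the filter on low values (at least 1 RPKM, a read count scaled by transcript length and by library depth, in at least 2 of the 13 sorted libraries) and were tested. The p65KO cells came from C57Bl/6 mice with Foxp3-CRE-YFP and floxed p65 alleles (p65 F/F). The c-RelKO cells came from C57Bl/6 mice with Foxp3-CRE-YFP and floxed c-Rel alleles (c-Rel F/F). The 3 libraries of wild-type (WT) aTregs, used to place both mutants, came from C57Bl/6 mice that also carry Foxp3-CRE-YFP but no floxed allele. All were YFP-positive cells sorted from spleen and lymph nodes as low for CD62L and high for CD44, with RNA extracted without culture. Resting Tregs (rTregs, high for CD62L and low for CD44) of the same 3 genotypes were sequenced as 2 libraries each. Because the Foxp3 gene drives Cre, deletion is restricted to cells that have expressed Foxp3, and other cells of these mice keep both subunits. The labels give no age or sex, do not say which exons are floxed, and do not say whether libraries of a group came from separate animals, so the p-values measure only the spread between these libraries, which may be technical.

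NF-kB is a family of dimeric transcription factors that inhibitor proteins hold in the cytoplasm until receptors such as the T cell receptor or members of the TNF receptor superfamily signal. p65 (encoded by Rela) and c-Rel (encoded by Rel) both carry a transactivation domain and bind similar kB motifs, while p50 and p52 (from Nfkb1 and Nfkb2) lack one and pair with them. c-Rel is known for its part in the development of Tregs in the thymus, and p65 for its part in mature and activated Tregs. Tregs restrain immune responses, and the aTreg subset holds the cells that have seen antigen and carry effector molecules.

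The deposited values are RPKM after an adjustment that the file headers do not describe, called adjusted RPKM below. It left 2.5% of the values of the 4 libraries below 0, which were set to 0. In the 4 libraries together, 3917 values were exactly equal to the value of the same gene in another library with the same replicate number. Values are given in the order of the replicate numbers, which are 1 and 2 for p65KO, 2 and 3 for c-RelKO, and 1, 2 and 3 for WT, so the mutants share only number 2. Ties were looked for only between libraries of the same number. The difference within number 2 is given beside the pooled one for the gene lists and for some of the genes. It can be much smaller than the pooled one for other genes too, such as Slc7a10, Zfp36 and Srebf2. Genes at 1 adjusted RPKM or more numbered 10128 to 10317 per library. The depth of each library could not be read from the adjusted values. Across tested genes the 4 libraries had pairwise Pearson correlations of 0.973 to 0.984 on the log2 scale. All 4 held the Treg genes Foxp3, Il2ra and Ctla4, with Foxp3 at 62.3 and 90.1 adjusted RPKM in p65KO aTregs and at 53.5 and 64.6 in c-RelKO aTregs. Ms4a1, Cd14, Ncr1 and Cd8a, defining markers of B cells, monocytes, NK cells and CD8 T cells, stayed under 0.3 adjusted RPKM in all 4 libraries. Some other members of these marker lists stood higher, and sums for the B cell, myeloid and NK lists are given further on. The summed level of the 2 CD8 T cell markers was 9.03 and 12.3 in p65KO aTregs and 7.96 and 12.4 in c-RelKO aTregs. Nearly all of that was Cd8b1. Xist and the 4 Y-linked genes on the marker list overlapped between the mutants.

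No gene passed the test between the mutants in the fit described here, and the count ran from 0 to 46 genes over the other settings tried, which are given after the results. In limma on log2(adjusted RPKM + 0.5), 0 of 10656 genes had a Benjamini-Hochberg adjusted p under 0.05 in either direction (0.0%), and the lowest adjusted p was 0.219. An unadjusted p under 0.05 was seen in 634 genes (5.95%), 300 of them higher (2.82%) and 334 lower (3.13%) in p65KO aTregs. Both p65KO libraries lay above both c-RelKO libraries in 1808 genes (17.0%) and below both in 2096 genes (19.7%), shares against which the counts of list members without overlap are to be read. A further demand for a log2 difference of at least 1 left 79 genes higher (0.741%) and 134 lower (1.26%). The median log2 difference over all tested genes was -0.016, so the mutants differed little in scale. With 2 libraries against 2, an exact two-sided permutation test of a single gene cannot give a p below 0.333. The differences that follow are descriptions of these libraries, given as log2 differences on the log2(value + 0.5) scale, p65KO minus c-RelKO, with the limma standard error (SE). Adding 0.5 shrinks the differences of low genes.

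Against WT aTregs the picture was likewise without calls in limma. In p65KO minus WT aTregs 0 genes passed, with 365 at an unadjusted p under 0.05 (3.43%) and a lowest adjusted p of 1.00. In c-RelKO minus WT aTregs 0 genes passed, with 717 at an unadjusted p under 0.05 (6.73%) and a lowest adjusted p of 0.103. After Benjamini-Hochberg adjustment over 14818 genes, the p-values in the authors' deposited table were under 0.05 for 29 genes in p65KO (0.196%), 10 of them higher (0.0675%) and 19 lower (0.128%) than WT. For c-RelKO the authors' deposited table had 77 such genes (0.52%), 59 of them higher (0.398%) and 18 lower (0.121%) than WT. These 2 comparisons share their WT libraries, and the model behind the deposited p-values is not given in the sources used here.

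The targeted genes were read first. Rel had 15.9 and 17.5 adjusted RPKM in p65KO aTregs, 1.56 and 3.01 in c-RelKO aTregs and 18.6, 21.3 and 22.0 in WT aTregs. Its log2 difference between the mutants was 2.68 (SE 0.46, unadjusted limma p 0.000149), and the groups did not overlap. The authors' deposited table gives Rel a log2 fold change of -2.73 in c-RelKO against WT aTregs (adjusted p 1.52e-09). Rel is therefore low in both libraries labelled c-RelKO, and slightly below the WT range in both labelled p65KO. Rela had 46.8 and 56.1 adjusted RPKM in p65KO aTregs, 65.5 and 65.8 in c-RelKO aTregs and 68.3, 62.3 and 64.2 in WT aTregs. That log2 difference was -0.36 (SE 0.12), with both p65KO libraries below every other library, but most of the Rela signal was present under p65 deletion. Values are per gene and not per exon, and the floxed exons are not named in the labels, so the Rela level cannot check the deletion of p65. Rel lies on mouse chromosome 11 at chr11:23736847-23770970 and Rela at chr19:5637483-5648130 (RefSeq, GRCm38.p6).

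Among the other subunits, Relb, which encodes the partner of p52 in the noncanonical pathway and is itself a known NF-kB target, was lower with p65 loss. It had 18.8 and 19.7 adjusted RPKM in p65KO aTregs, 38.4 and 33.3 in c-RelKO aTregs and 37.8, 34.5 and 20.8 in WT aTregs. The log2 difference between the mutants was -0.88 (SE 0.25, unadjusted limma p 0.00542). Both p65KO libraries lay below all other aTreg libraries, with WT library 3 close to them. In the authors' deposited table Relb had a log2 fold change of -1.12 in p65KO against WT aTregs (adjusted p 0.0149) and of 0.21 in c-RelKO against WT aTregs (adjusted p 1.00). The same order was seen in rTregs, with 14.4 and 14.5 adjusted RPKM in p65KO and 30.7 and 22.4 in c-RelKO. Nfkb2, the p52 precursor gene, had 34.7 and 34.2 adjusted RPKM in p65KO aTregs, 47.0 and 38.2 in c-RelKO aTregs and 49.7, 49.7 and 33.3 in WT aTregs, a log2 difference between the mutants of -0.29 (SE 0.27). Nfkb1, the p50 precursor gene, overlapped between the mutants, with 72.4 and 79.1 adjusted RPKM in p65KO aTregs and 85.3 and 78.5 in c-RelKO aTregs.

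Inhibitors and feedback regulators of NF-kB leaned to lower values with p65 loss. Of 20 genes, all tested, 14 had a log2 difference below 0 and 6 above. In both p65KO libraries 10 lay below both c-RelKO libraries and 1 above (Tnip3), against 19.7% and 17.0% of all tested genes. The list median was -0.14 (-0.098 within number 2), against -0.016 for all tested genes. None passed the test. Nfkbia, the gene of the inhibitor IkBa and a classical feedback target, had 145 and 187 adjusted RPKM in p65KO aTregs, 240.4 and 252 in c-RelKO aTregs and 267, 284 and 211 in WT aTregs, a log2 difference between the mutants of -0.58 (SE 0.20). Both p65KO libraries were below all 5 other aTreg libraries. Zfp36, whose product destabilises cytokine mRNAs, had 149 and 138 adjusted RPKM in p65KO aTregs and 161 and 271 in c-RelKO aTregs. Tnip1, a partner of the ubiquitin editor A20, had 48.1 and 62.3 adjusted RPKM in p65KO aTregs and 70.7 and 69.8 in c-RelKO aTregs. Cyld, a deubiquitinase of the pathway, had 36.0 and 33.4 adjusted RPKM in p65KO aTregs and 41.7 and 39.8 in c-RelKO aTregs. Each of these genes was separated between the mutants by less than 2-fold. The 14 tested upstream components stood near the background, with 6 above and 8 below 0, a median of -0.0071 (-0.017 within number 2), and Malt1, the protease of the antigen receptor complex, among the 3 that were lower without overlap. The median of the inhibitor list stayed between -0.15 and -0.13 when any 1 of the 4 libraries was left out.

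**Figure D1:**
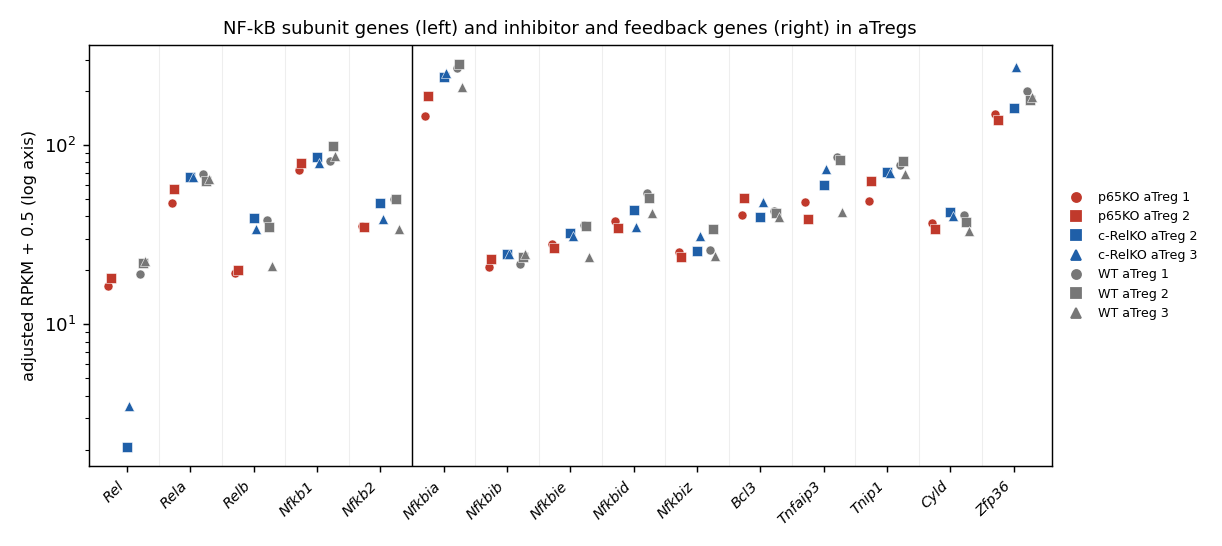
Adjusted RPKM + 0.5 (log axis) of the 5 subunit genes and 10 inhibitor and feedback genes in each aTreg library, p65KO in red, c-RelKO in blue and WT in grey, with the marker shape giving the replicate number. Rel is low in both c-RelKO libraries, while Relb and Nfkbia are lower in both p65KO libraries than in both c-RelKO libraries.

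The promoter windows of 3 genes with a large difference between the mutants are shown because kB motifs are the sites that p65 and c-Rel dimers bind. Sequences are from RefSeq (GRCm38.p6), 5′ to 3′ on the gene's strand, from 250 bases before to 50 after the start, with capitals marking each match on either strand to the short motif GGGNNNNNCC, overlapping matches being joined. Among promoters with a match, the 6 genes of largest difference were Rel, Tnfrsf8, Xaf1, H2-Eb1, H2-Aa and Klrb1c, and the 3 shown, which hold matches on both strands at the same start, were chosen after that was seen. The windows lie at chr11:23770920-23771219 on the minus strand for Rel, at chr4:145315115-145315414 on the minus strand for Tnfrsf8 (the gene of CD30), and at chr17:34287774-34288073 on the minus strand for H2-Aa, a class II antigen presentation gene.
Rel: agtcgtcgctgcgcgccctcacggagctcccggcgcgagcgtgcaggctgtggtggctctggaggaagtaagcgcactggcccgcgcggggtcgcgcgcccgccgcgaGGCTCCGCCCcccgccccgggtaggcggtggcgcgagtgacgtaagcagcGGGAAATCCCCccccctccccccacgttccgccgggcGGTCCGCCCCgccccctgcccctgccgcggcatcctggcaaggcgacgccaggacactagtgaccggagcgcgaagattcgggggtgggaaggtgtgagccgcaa
Tnfrsf8: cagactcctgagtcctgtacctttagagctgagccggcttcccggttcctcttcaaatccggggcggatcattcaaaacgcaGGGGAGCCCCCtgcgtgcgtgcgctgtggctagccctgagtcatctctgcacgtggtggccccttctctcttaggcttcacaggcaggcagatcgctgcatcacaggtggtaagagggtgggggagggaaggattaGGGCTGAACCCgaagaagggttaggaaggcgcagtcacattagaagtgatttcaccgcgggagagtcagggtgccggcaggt
H2-Aa: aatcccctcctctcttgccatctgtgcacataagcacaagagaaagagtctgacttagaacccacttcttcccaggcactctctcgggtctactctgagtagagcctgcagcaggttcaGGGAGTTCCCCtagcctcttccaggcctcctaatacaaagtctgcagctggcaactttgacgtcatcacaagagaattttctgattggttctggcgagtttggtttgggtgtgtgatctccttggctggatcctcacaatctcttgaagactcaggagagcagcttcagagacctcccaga
A match is common: 13624 of 27025 promoters in the RefSeq table (50.4%) and 5599 of 8208 promoters of tested genes (68.2%) hold at least 1. It was present in 6 of the 8 promoters found for the 12 genes of largest difference with p65KO higher, and in 3 of the 7 found for the 12 with p65KO lower. These shares lie on both sides of that of the tested genes, and a match is not a binding site.

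The largest differences with p65KO above c-RelKO belonged mostly to genes that were near WT in p65KO aTregs and low in c-RelKO aTregs. By size, the 12 without overlap and with a mean of at least 5 adjusted RPKM in the higher group were Rel, Tnfrsf8, Klrg1, Lad1, Xaf1, Penk, Colq, 2310015A10Rik, Tlcd2, Il1r2, Ccr8 and Atp6v0d2. Their log2 differences ran from 2.68 for Rel to 1.5 for Atp6v0d2. The same sign within replicate number 2 follows for all 12 from the demand for no overlap. Of the 12, 4 had an adjusted p under 0.05 for c-RelKO against WT aTregs in the authors' deposited table, and 0 did for p65KO against WT aTregs. Both that comparison and the choice of the 12 rest on the c-RelKO aTreg group, so the count is not separate support. Of the 12, 5 belong to the 100 genes that stand highest in WT aTregs against WT rTregs (Tnfrsf8, Klrg1, Penk, Il1r2 and Ccr8), and library c-RelKO 3 was low for that list as a whole, as given further on.

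Klrg1, an inhibitory receptor carried by terminally differentiated effector Tregs, had 72.0 and 81.4 adjusted RPKM in p65KO aTregs, 23.8 and 8.10 in c-RelKO aTregs and 82.2, 82.3 and 62.0 in WT aTregs. Its log2 difference of 2.41 (SE 0.39) had the lowest unadjusted limma p of all tested genes at 8.13e-05, and was 1.75 within number 2. Both c-RelKO libraries lay far below every p65KO and WT library. Against WT the authors' deposited table gives Klrg1 a log2 fold change of -1.78 in c-RelKO (adjusted p 0.0521) and of -0.11 in p65KO (adjusted p 1.00). In rTregs Klrg1 was low in both genotypes, with 6.00 and 4.81 adjusted RPKM in p65KO and 6.13 and 4.44 in c-RelKO, and the difference of differences was 2.38 (SE 0.55, adjusted limma p 1.00).

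Penk, which encodes the opioid peptide precursor proenkephalin, had 167 and 132 adjusted RPKM in p65KO aTregs, 57.5 and 24.8 in c-RelKO aTregs and 134, 141 and 102 in WT aTregs. The log2 difference between the mutants was 1.96 (SE 0.45) and 1.20 within number 2, and the authors' deposited table gives -1.40 for c-RelKO against WT aTregs (adjusted p 0.00379). Tnfrsf8, the gene of the TNF receptor family member CD30, had 7.92 and 8.86 adjusted RPKM in p65KO aTregs, 3.95 and 0 in c-RelKO aTregs and 12.7, 15.6 and 11.8 in WT aTregs. It was listed at 0 in c-RelKO 3, which carries much of the pooled log2 difference of 2.57 (SE 0.77), and differed by 1.07 within number 2. For Tnfrsf8 the authors' deposited table has a log2 fold change of -2.03 in c-RelKO against WT aTregs (adjusted p 5.74e-08) and of -0.75 in p65KO against WT aTregs (adjusted p 0.945). Both p65KO libraries of Tnfrsf8 were also below all 3 WT libraries.

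Ccr8, a chemokine receptor of effector Tregs in tissue, had 71.3 and 72.7 adjusted RPKM in p65KO aTregs, 40.0 and 15.6 in c-RelKO aTregs and 104, 71.3 and 62.7 in WT aTregs. Il1r2, the decoy receptor for interleukin 1, had 86.7 and 79.8 adjusted RPKM in p65KO aTregs, 29.6 and 27.8 in c-RelKO aTregs and 87.8, 72.6 and 43.9 in WT aTregs. Neither overlapped between the mutants, and in WT library 3 Il1r2 lay nearer to c-RelKO than in the other WT libraries. Lad1, a gene of the basement membrane zone, had 4.19 and 7.85 adjusted RPKM in p65KO aTregs and 1.15 and 0.414 in c-RelKO aTregs, a log2 difference of 2.35 (SE 0.53), and was also higher in p65KO rTregs (7.87 and 9.49) than in c-RelKO rTregs (2.97 and 1.20). Of the 12, Lad1 is the 1 gene on the list of the 100 that stand lowest in WT aTregs against WT rTregs. Xaf1, an interferon-induced gene, had 13.4 and 42.0 adjusted RPKM in p65KO aTregs and 4.38 and 6.94 in c-RelKO aTregs, but its WT libraries spread over 14.3, 4.31 and 27.2. Atp6v0d2, a proton pump subunit gene, had 14.7 and 6.52 adjusted RPKM in p65KO aTregs and 5.25 and 1.83 in c-RelKO aTregs, with a difference of only 0.29 within number 2. Colq, a gene known for the collagen tail of acetylcholinesterase, had 5.87 and 9.75 adjusted RPKM in p65KO aTregs, 1.46 and 2.7 in c-RelKO aTregs and 5.54, 5.62 and 6.62 in WT aTregs. Tlcd2, a gene of membrane lipid composition, had 11.5 and 14.1 adjusted RPKM in p65KO aTregs and 5.77 and 2.80 in c-RelKO aTregs. In Colq the c-RelKO libraries were again below every p65KO and WT library, while for Tlcd2 a WT library fell between the c-RelKO libraries.

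**Figure D2:**
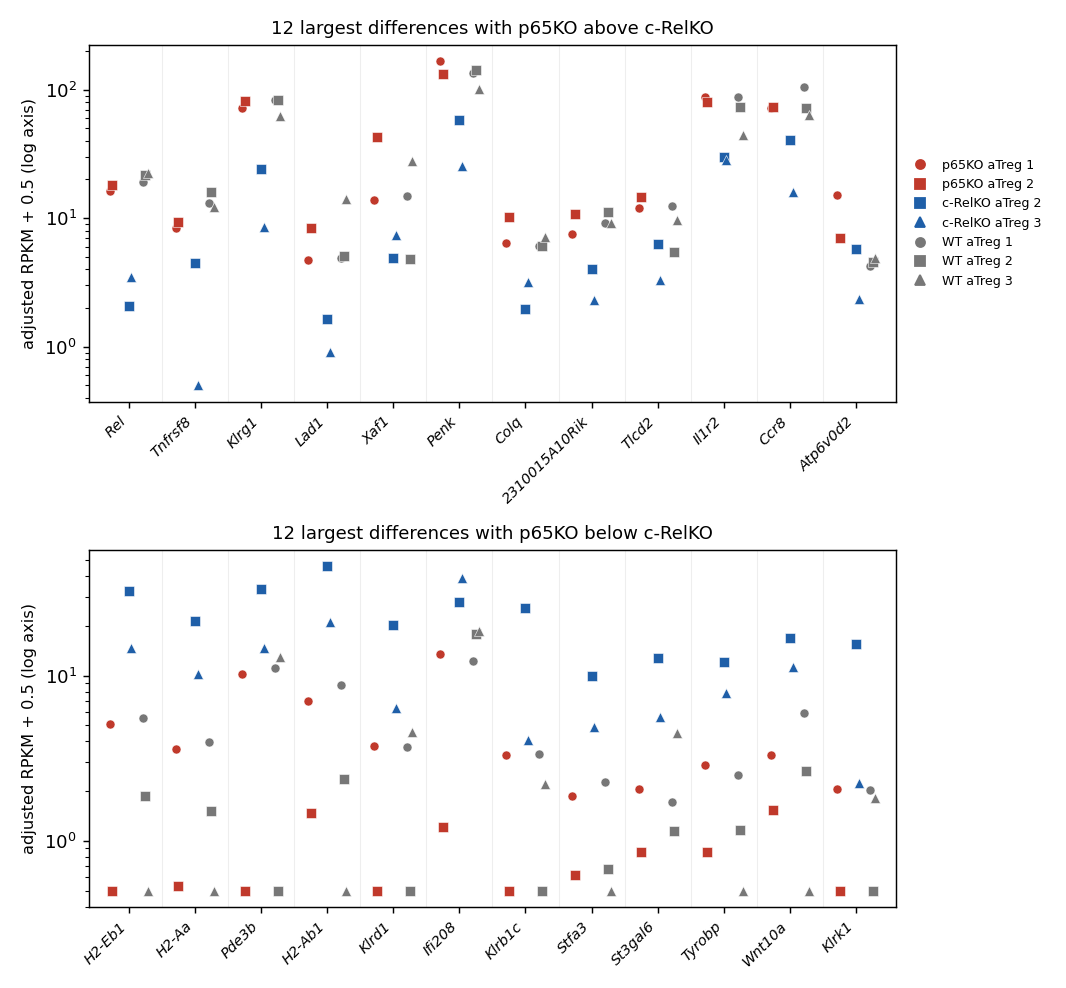
Adjusted RPKM + 0.5 (log axis) of the 12 genes of largest log2 difference in each direction in all 7 aTreg libraries, p65KO in red, c-RelKO in blue and WT in grey. In the upper panel the c-RelKO libraries sit below p65KO and mostly below WT, while in the lower panel c-RelKO 2 and c-RelKO 3 sit above the p65KO libraries and p65KO 2 reaches 0 for several genes.

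The smallest p-values belonged to 11 genes that shared the adjusted p of 0.219, named after their values were seen. Klrg1, Serp2, Rel, Pparg, B3gnt5, Cd80, Rom1, Cd81 and Crebl2 were higher in p65KO aTregs, and Slco3a1 and Tdrkh were lower. Cd81, a tetraspanin, had 109 and 95.4 adjusted RPKM in p65KO aTregs, 50.8 and 43.3 in c-RelKO aTregs and 109.9, 95.9 and 96.0 in WT aTregs, a log2 difference between the mutants of 1.11 (SE 0.20). Cd80, a costimulatory ligand, had 3.33 and 3.94 adjusted RPKM in p65KO aTregs, 1.19 and 0.995 in c-RelKO aTregs and 2.72, 2.98 and 2.13 in WT aTregs. For both, the p65KO libraries lay near or above WT and the c-RelKO libraries below every other library. Crebl2, a bZIP factor, had 29.0 and 25.2 adjusted RPKM in p65KO aTregs and 11.2 and 11.0 in c-RelKO aTregs. Pparg, the nuclear receptor of tissue Tregs in fat, had 1.39 and 1.45 adjusted RPKM in p65KO aTregs and 0.259 and 0.158 in c-RelKO aTregs, low in all libraries. Serp2 had 3.66 and 4.10 in p65KO aTregs and 1.07 and 1.34 in c-RelKO aTregs, and B3gnt5, a glycosyltransferase gene, had 6.58 and 8.92 in p65KO aTregs and 3.62 and 3.76 in c-RelKO aTregs. These genes differed by more between the mutants than within either pair, which their choice by the smallest p-values favours. Slco3a1, an organic anion transporter gene, had 6.03 and 5.96 adjusted RPKM in p65KO aTregs, 11.0 and 11.3 in c-RelKO aTregs and 9.53, 8.52 and 7.66 in WT aTregs. WT stood between the mutants for Slco3a1. The pooled and within-number-2 differences of all 11 had the same sign, from 0.90 for Cd81 to 3.13 for Rel among those higher.

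Members of the TNF receptor superfamily, which feed costimulation into NF-kB, mostly stood higher in p65KO aTregs. Of 14 listed, 12 were tested and 9 had a log2 difference above 0. Without overlap, 7 were higher and 2 lower, against 17.0% and 19.7% of all tested genes. The list median was 0.25 (0.22 within number 2). None passed the test. Tnfrsf4, the gene of OX40, had 429.6 and 445 adjusted RPKM in p65KO aTregs, 295 and 258 in c-RelKO aTregs and 578, 429 and 381 in WT aTregs, a log2 difference between the mutants of 0.66 (SE 0.23). Tnfrsf18, the gene of GITR, had 327 and 359 adjusted RPKM in p65KO aTregs, 252 and 235 in c-RelKO aTregs and 338, 348 and 334 in WT aTregs. Both c-RelKO libraries were the lowest of the 7 for each of these receptors. Tnfrsf1a, the gene of the widely expressed TNF receptor, ran the other way, with 14.4 and 12.3 adjusted RPKM in p65KO aTregs and 23.4 and 19.6 in c-RelKO aTregs. In each sorted aTreg mutant a lower level of a transcript and fewer cells that carry it cannot be told apart.

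Genes of Treg identity gave a similar count. Of 17 tested, 12 had a log2 difference above 0. There were 8 higher and 0 lower without overlap, against 17.0% and 19.7% of all tested genes. The list median was 0.21, 0.51 within number 2, 0.34 without p65KO 1 and 0.11 without p65KO 2. Nrp1, a semaphorin receptor of thymus-derived Tregs, had 61.6 and 77.7 adjusted RPKM in p65KO aTregs, 44.8 and 26.9 in c-RelKO aTregs and 72.6, 70.9 and 60.7 in WT aTregs. Ikzf4, which encodes the Foxp3 partner Eos, had 40.4 and 38.6 adjusted RPKM in p65KO aTregs, 20.6 and 21.3 in c-RelKO aTregs and 45.1, 43.5 and 38.7 in WT aTregs. Swap70, a signalling adaptor, had 27.9 and 28.4 adjusted RPKM in p65KO aTregs, 14.4 and 15.8 in c-RelKO aTregs and 24.9, 28.5 and 22.1 in WT aTregs. For Ikzf4 the log2 difference was 0.90 (SE 0.23), and both c-RelKO libraries lay below all p65KO and WT libraries, as they did for Swap70 and Nrp1. Foxp3 itself overlapped between the mutants, with a log2 difference of 0.35 (SE 0.37). None of the 17 passed the test.

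Effector Treg genes leaned the same way, but the size of the lean depended on which c-RelKO library was used. Of 26 tested, 19 had a log2 difference above 0. Genes without overlap were 12 higher and 1 lower, against 17.0% and 19.7% of all tested genes. The list median was 0.32. Within number 2 the median was 0.17, without c-RelKO 3 it was 0.13, and without c-RelKO 2 it was 0.54. Besides Klrg1 and Ccr8, Il1rl1, the interleukin 33 receptor gene, had 14.6 and 15.8 adjusted RPKM in p65KO aTregs, 7.51 and 4.62 in c-RelKO aTregs and 11.2, 13.9 and 9.48 in WT aTregs. Its log2 difference was 1.29 (SE 0.39), 1.02 within number 2. Gata3, a lineage factor of T helper 2 cells that is also used by tissue Tregs, had 75.9 and 58.3 adjusted RPKM in p65KO aTregs and 52.6 and 38 in c-RelKO aTregs, with a difference of 0.15 within number 2. Pdcd1, the gene of PD-1, had 131 and 106 adjusted RPKM in p65KO aTregs, 94.7 and 39.8 in c-RelKO aTregs and 188, 152 and 107 in WT aTregs, and differed by 0.17 within number 2. For Gata3 and Pdcd1 most of the separation thus came from c-RelKO 3. None of the list passed the test.

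The activation state of the libraries was read from 200 genes chosen without the mutant libraries: the 100 that stand furthest above (aTreg-high) and the 100 that stand furthest below (aTreg-low) WT rTregs in WT aTregs. Over the aTreg-high genes the mean log2 value was 4.03 and 4.01 in p65KO aTregs, 4.02 and 3.05 in c-RelKO aTregs, and 4.47, 4.35 and 3.68 in WT aTregs. Over the aTreg-low genes it was 3.56 and 3.77 in p65KO aTregs, 3.67 and 4.54 in c-RelKO aTregs, and 2.75, 3.32 and 4.32 in WT aTregs. c-RelKO 2 stood level with both p65KO libraries on both scales, and c-RelKO 3 stood nearest of all 7 to the rTreg libraries, which spanned 1.31 to 2.20 over the aTreg-high genes and 4.84 to 5.13 over the aTreg-low genes. The part of this difference between libraries in the results was not tested beyond the values without c-RelKO 3.

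Pooled, the aTreg-high genes had a median log2 difference of 0.45 between p65KO and c-RelKO aTregs, with 81 above 0. Of these 100 genes, 47 were higher and 3 lower without overlap, against 17.0% and 19.7% of all tested genes. Within number 2 the list median was 0.11 with 57 above 0, and without c-RelKO 3 it was 0.035. The aTreg-low genes had a pooled median of -0.35 with 82 below 0, against 0.20 within number 2, where the sign turned, and 0.026 without c-RelKO 3. The pooled activation difference between the mutants therefore rested on c-RelKO 3. Slc7a10, an amino acid transporter gene and an aTreg-high gene, had 6.61 and 3.02 adjusted RPKM in p65KO aTregs, 2.07 and 0 in c-RelKO aTregs and 15.5, 9.92 and 7.99 in WT aTregs. For the aTreg-high genes Tnfrsf8, Klrg1, Penk, Il1r2 and Ccr8 the difference within number 2 was 0.85 (Ccr8) or more. Of the aTreg-low genes, Ly6c1, a surface protein gene, had 0 and 74.8 adjusted RPKM in p65KO aTregs, 67.6 and 151 in c-RelKO aTregs and 0, 55.3 and 141 in WT aTregs. Ly6c1 was listed at 0 in both libraries numbered 1 and differed by 0.14 within number 2. Ifitm3, an interferon-induced membrane protein gene, had 3.17 and 7.05 adjusted RPKM in p65KO aTregs, 12.5 and 17.4 in c-RelKO aTregs and 1.45, 2.62 and 1.18 in WT aTregs. Prf1, the perforin gene, had 1.99 and 2.33 adjusted RPKM in p65KO aTregs, 6.17 and 8.41 in c-RelKO aTregs and 1.73, 1.97 and 6.18 in WT aTregs. Ifitm3 and Prf1 were lower in p65KO than in c-RelKO within number 2 too, by log2 differences of -0.78 for Ifitm3 and -1.24 for Prf1.

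**Figure D3:**
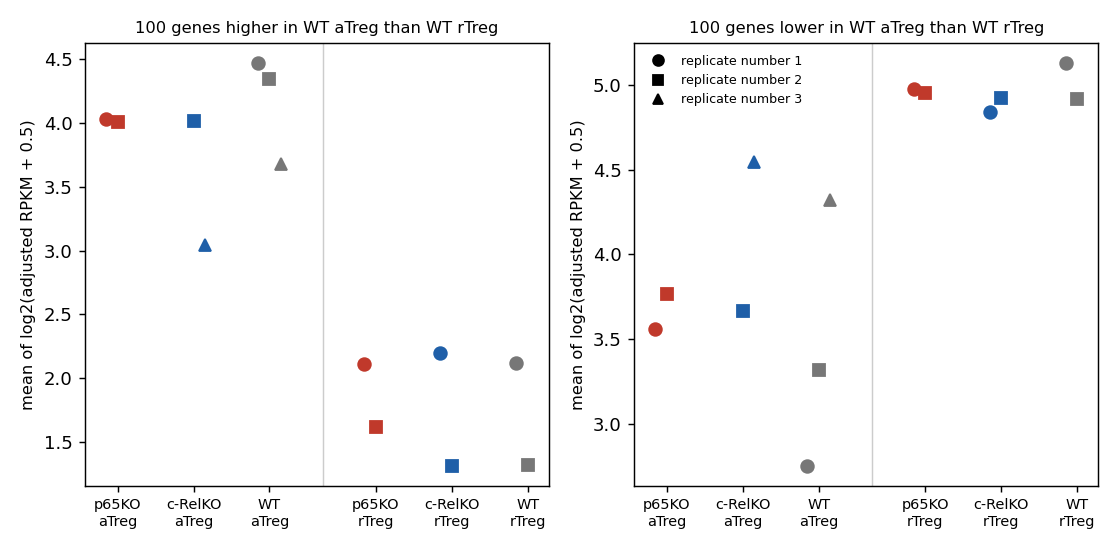
Mean log2(adjusted RPKM + 0.5) over the 100 aTreg-high genes (left) and the 100 aTreg-low genes (right), per library, with p65KO in red, c-RelKO in blue and WT in grey and the marker shape giving the replicate number. c-RelKO 2 lies level with both p65KO libraries, while c-RelKO 3 and WT 3 lie closest to the rTregs.

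The largest differences with p65KO below c-RelKO included 3 class II antigen presentation genes and 3 NK receptor genes. By size the 12 were H2-Eb1, H2-Aa, Pde3b, H2-Ab1, Klrd1, Ifi208, Klrb1c, Stfa3, St3gal6, Tyrobp, Wnt10a and Klrk1, with log2 differences from -3.78 for H2-Eb1 to -2.54 for Klrk1. The demand for no overlap fixes the same sign within number 2 for all 12, and 2 have a value tied with another library. Of these 12, 8 had an adjusted p under 0.05 for c-RelKO against WT aTregs in the authors' deposited table, all with a positive log2 fold change, and 0 did for p65KO against WT aTregs. Here too the c-RelKO aTreg group served for the choice, so the count is not separate support. Most of the 12 were at or near 0 in p65KO 2 and in 1 or more WT libraries, so the fitted differences depend on the added 0.5.

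Class II antigen presentation genes, which mouse T cells normally express little of and antigen-presenting cells express highly, led this group. Of 9 listed, 7 were tested and 6 had a log2 difference below 0. All 6 were lower without overlap, against 19.7% of all tested genes. The list median was -2.21 (-2.34 within number 2). H2-Ab1, the gene of the beta chain of I-A, had 6.50 and 0.977 adjusted RPKM in p65KO aTregs, 45.6 and 20.6 in c-RelKO aTregs and 8.24, 1.88 and 0 in WT aTregs. H2-Aa, the gene of the alpha chain of I-A, had 3.10 and 0.0338 adjusted RPKM in p65KO aTregs, 21.1 and 9.74 in c-RelKO aTregs and 3.45, 1.01 and 0 in WT aTregs. H2-Eb1, the gene of the beta chain of I-E, had 4.59 and 0 adjusted RPKM in p65KO aTregs, 31.9 and 14.3 in c-RelKO aTregs and 5.05, 1.36 and 0 in WT aTregs. The c-RelKO libraries were the highest of the 7 for all 3 genes, and p65KO stood among the WT libraries. In the authors' deposited table the log2 fold changes in c-RelKO against WT aTregs were 2.82 for H2-Aa (adjusted p 0.000216), 2.62 for H2-Ab1 (adjusted p 0.00182) and 2.83 for H2-Eb1 (adjusted p 0.00045). Cd74, the gene of the invariant chain that chaperones class II, had 47.8 and 51.3 adjusted RPKM in p65KO aTregs, 262 and 203 in c-RelKO aTregs and 160.1, 116 and 15.6 in WT aTregs. For Cd74 both p65KO libraries were below WT 1 and WT 2 and above WT 3.

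Some markers of antigen-presenting and myeloid cells moved with the class II genes. The summed level of the 11 myeloid markers in the table was 5.53 and 3.15 adjusted RPKM in p65KO aTregs, 16.5 and 9.52 in c-RelKO aTregs and 7.31, 5.66 and 4.96 in WT aTregs. All 4 tested members of this list had a log2 difference below 0, but only 2 were lower without overlap, and 2 overlapped between the mutants. Siglech, a marker of plasmacytoid dendritic cells, had 0.751 and 0.0279 adjusted RPKM in p65KO aTregs and 4.34 and 2.97 in c-RelKO aTregs. Itgax, the gene of CD11c, had 0.319 and 0 in p65KO aTregs and 2.26 and 0.786 in c-RelKO aTregs. Lyz2, a lysozyme gene of myeloid cells, had 0.395 and 0.609 in p65KO aTregs and 3.88 and 1.66 in c-RelKO aTregs. Both c-RelKO libraries were above both p65KO libraries for all 3 markers, whereas Cd14, S100a8, S100a9 and Csf1r stayed under 0.3 in all 4. The summed level of the 8 B cell markers did not follow, at 22.7 and 23.4 in p65KO aTregs and 19.0 and 21.7 in c-RelKO aTregs, nearly all of it Cd79b. The part of myeloid or dendritic cell RNA in the class II difference was not tested.

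Tyrobp, the adaptor of activating receptors on NK and myeloid cells, had 2.37 and 0.357 adjusted RPKM in p65KO aTregs, 11.7 and 7.41 in c-RelKO aTregs and 2.01, 0.666 and 0 in WT aTregs. The authors' deposited table gives Tyrobp a log2 fold change of 3.26 in c-RelKO against WT aTregs (adjusted p 1.14e-05). NK receptor genes showed another pattern, being high mainly in c-RelKO 2. Klrb1c, the gene of NK1.1, had 2.79 and 0 adjusted RPKM in p65KO aTregs, 25 and 3.60 in c-RelKO aTregs and 2.88, 0 and 1.72 in WT aTregs. Klrk1, the gene of NKG2D, had 1.55 and 0 in p65KO aTregs, 15 and 1.73 in c-RelKO aTregs and 1.54, 0 and 1.31 in WT aTregs. Klrd1, the gene of CD94, had 3.25 and 0 in p65KO aTregs, 19.9 and 5.91 in c-RelKO aTregs and 3.20, 0 and 4.04 in WT aTregs. The NK lineage marker Ncr1 stayed under 0.2 in all 4 libraries, and the sum of the 7 NK and cytotoxic markers overlapped, at 169 and 160.0 in p65KO and 198 and 123 in c-RelKO aTregs. That sum hides members of both signs. Of its 5 tested members, 2 were higher and 2 lower without overlap, with log2 differences from -3.00 (Klrb1c) to 1.01. An NK cell part in these genes was not tested. Among the other genes of the 12, Ifi208, an interferon-inducible gene, had 13 and 0.714 adjusted RPKM in p65KO aTregs, 27.3 and 38.6 in c-RelKO aTregs and 11.8, 17.4 and 18.1 in WT aTregs, so that p65KO 2 alone stood far below WT. Pde3b, a phosphodiesterase gene, had 9.79 and 0 adjusted RPKM in p65KO aTregs, 32.9 and 14.3 in c-RelKO aTregs and 10.6, 0 and 12.4 in WT aTregs, with p65KO 2 and WT 2 both listed at 0. St3gal6, a sialyltransferase gene, had 1.57 and 0.350 adjusted RPKM in p65KO aTregs, 12.3 and 5.16 in c-RelKO aTregs and 1.23, 0.649 and 3.97 in WT aTregs. Wnt10a, a Wnt ligand gene, had 2.83 and 1.04 adjusted RPKM in p65KO aTregs, 16.4 and 10.8 in c-RelKO aTregs and 5.44, 2.14 and 0 in WT aTregs. For both genes the c-RelKO libraries were the highest of the 7.

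**Figure D4:**
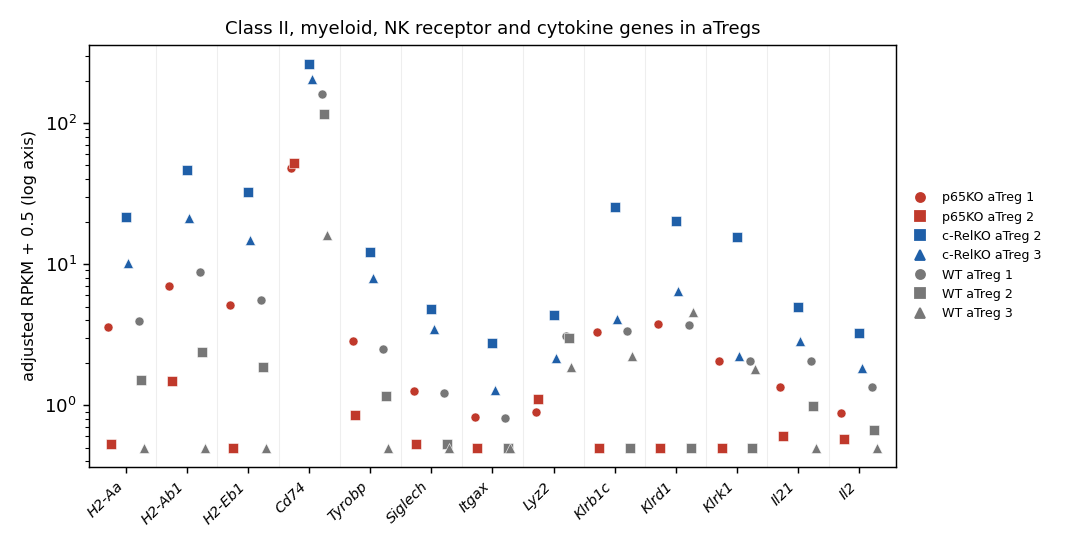
Adjusted RPKM + 0.5 (log axis) of class II, myeloid, NK receptor and cytokine genes in each aTreg library, p65KO in red, c-RelKO in blue and WT in grey. Both c-RelKO libraries lie above both p65KO libraries for each gene plotted, and for Klrb1c, Klrd1 and Klrk1 mainly c-RelKO 2 stands apart.

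Cytokine and lineage factor genes were mostly lower in p65KO than in c-RelKO aTregs. Of 16 tested, 14 had a log2 difference below 0. Lower without overlap were 9 and higher 2, against 19.7% and 17.0% of all tested genes. The list median was -0.57 (-0.62 within number 2, -0.38 without c-RelKO 2). None passed the test. Il21, a cytokine of helper T cells, had 0.848 and 0.105 adjusted RPKM in p65KO aTregs, 4.44 and 2.33 in c-RelKO aTregs and 1.55, 0.493 and 0 in WT aTregs. Il2, the growth factor that Tregs take up and normally do not make, had 0.380 and 0.0707 adjusted RPKM in p65KO aTregs, 2.75 and 1.34 in c-RelKO aTregs and 0.847, 0.169 and 0 in WT aTregs. Both were low everywhere and highest in c-RelKO 2. For Il21 the authors' deposited table gives a log2 fold change of 2.17 in c-RelKO against WT aTregs (adjusted p 0.00274). The 5 tested chemokine genes all overlapped between the mutants (median -0.26, and -1.14 within number 2), among them Xcl1 with 5.03 and 2.42 adjusted RPKM in p65KO aTregs and 25.7 and 3.01 in c-RelKO aTregs, and Ccl5 with 43.0 and 69.4 in p65KO aTregs and 154 and 27.7 in c-RelKO aTregs. Like the NK receptor genes, both stood high in c-RelKO 2 and not in c-RelKO 3. Of 16 chemokine receptors tested, 4 were higher and 6 lower without overlap, against 17.0% higher and 19.7% lower of all tested genes, and the median was -0.074 (-0.33 within number 2), with Ccr8 at the upper end, and Ccr3 higher and Ccr9 lower in p65KO at levels under 6 adjusted RPKM.

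Early genes of T cell receptor signalling stood lower in p65KO aTregs by smaller amounts. Of 22 tested, 14 had a log2 difference below 0. Without overlap, 10 were lower and 2 higher, against 19.7% and 17.0% of all tested genes. The list median was -0.14. Within number 2 it was -0.048, and without p65KO 1 it was 0.026. Dusp2, a phosphatase of MAP kinases, had 148 and 147 adjusted RPKM in p65KO aTregs, 246 and 235 in c-RelKO aTregs and 136, 168 and 201 in WT aTregs, a log2 difference between the mutants of -0.70 (SE 0.20). Fosb, an AP-1 subunit gene, had 2.68 and 2.51 adjusted RPKM in p65KO aTregs, 5.16 and 7.32 in c-RelKO aTregs and 3.23, 3.49 and 2.08 in WT aTregs. Junb, another AP-1 subunit gene, had 238 and 288 in p65KO aTregs, 354 and 452 in c-RelKO aTregs and 376, 356 and 278 in WT aTregs. For Dusp2 and Fosb c-RelKO was the highest of the 3 genotypes. Fos, Fosb, Jun, Junb and Zfp36 are also induced when cells are dissociated, and the summed level of the 13 stress and dissociation genes was 2144 and 2207 adjusted RPKM in p65KO aTregs and 2250.0 and 2621 in c-RelKO aTregs, a list that shares these genes. Their part in the difference was not tested.

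Inhibitory and costimulatory receptors held genes on both sides, with a median of 0.10 (0.095 within number 2). Of 18 tested, 8 were higher and 2 lower without overlap, against 17.0% and 19.7% of all tested genes. Cd200r1, an inhibitory receptor, had 25 and 17.1 adjusted RPKM in p65KO aTregs and 13.3 and 11.3 in c-RelKO aTregs, while its ligand gene Cd200 had 27.0 and 29.4 in p65KO aTregs and 50.5 and 43.3 in c-RelKO aTregs. The inhibitory receptor gene Btla had 40.1 and 31.1 in p65KO aTregs and 51.5 and 49.2 in c-RelKO aTregs. Receptor and ligand of the CD200 pair thus stood on opposite sides. Of 19 integrin and adhesion genes tested, 5 were higher and 2 lower without overlap, against 17.0% higher and 19.7% lower of all tested genes, and the median was 0.082 (0.28 within number 2). Itgb1, the gene of the shared beta 1 integrin chain, had 324 and 428 adjusted RPKM in p65KO aTregs and 236 and 137 in c-RelKO aTregs, and its partner gene Itga4 had 53.8 and 61.5 in p65KO aTregs and 41.9 and 37.7 in c-RelKO aTregs. Itgb8, whose product activates TGF-beta, had 5.62 and 6.27 in p65KO aTregs and 4.36 and 2.53 in c-RelKO aTregs. Vcam1, an adhesion molecule gene of stromal and myeloid cells, was the largest lower one without overlap, with 1.27 and 0.412 in p65KO aTregs and 2.25 and 1.97 in c-RelKO aTregs.

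Genes of interleukin 2 and STAT signalling had 10 members above and 10 below 0 with a median of 0.022, and 15 above and 5 below 0 with a median of 0.16 within number 2. Il10ra, the interleukin 10 receptor gene, had 79.3 and 82.0 adjusted RPKM in p65KO aTregs, 56.4 and 47.7 in c-RelKO aTregs and 84.9, 78.0 and 67.3 in WT aTregs. Its log2 difference was 0.63 (SE 0.14, unadjusted limma p 0.00103), with almost no spread within p65KO. In rTregs Il10ra had 57.4 and 59.8 adjusted RPKM in p65KO and 38.7 and 32.2 in c-RelKO, a log2 difference of 0.72 (adjusted limma p 1.00), and the mutants did not overlap there either. Glycolysis genes had a median of 0.072 (0.12 within number 2). Of 18 tested, 6 were higher and 0 lower without overlap, against 17.0% and 19.7% of all tested genes. Tpi1, a glycolytic isomerase gene, had 73.5 and 73.5 adjusted RPKM in p65KO aTregs, 51.1 and 44.7 in c-RelKO aTregs and 56.1, 56.1 and 51.1 in WT aTregs, a log2 difference between the mutants of 0.61 (SE 0.15). For Tpi1 both p65KO libraries lay above all WT libraries, and c-RelKO lay at or below the lowest of them.

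Interferon-stimulated genes had a median log2 difference of 0.0028. Of 26 tested, 7 were higher and 2 lower without overlap, against 17.0% and 19.7% of all tested genes. Within number 2 the list median was 0.25, with 22 above and 4 below 0. Oas1a, an antiviral enzyme gene, had 24.2 and 21.7 adjusted RPKM in p65KO aTregs and 17.2 and 13 in c-RelKO aTregs, and Mx2, an antiviral GTPase gene, had 2.31 and 2.34 in p65KO aTregs and 1.55 and 1.56 in c-RelKO aTregs. Among resting and lymphoid homing genes 14 of 18 had a log2 difference below 0, with a median of -0.14 that became 0.11 within number 2. Foxp1, a factor of quiescent T cells, had 19.3 and 16.5 adjusted RPKM in p65KO aTregs and 22.7 and 34.2 in c-RelKO aTregs. Ccr7, the homing receptor for lymph nodes, had 132 and 177 in p65KO aTregs and 155 and 303 in c-RelKO aTregs and overlapped between the mutants. Id3, an inhibitor of E proteins, was higher in p65KO aTregs with 77.0 and 117 against 67.1 and 70.4 in c-RelKO aTregs.

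For housekeeping programmes the pooled medians were 0.064 for 28 cell cycle genes, 0.048 for 19 apoptosis regulators, 0.016 for 25 cytosolic ribosomal protein genes, -0.063 for 21 ribosome biogenesis genes and -0.06 for 23 respiratory chain genes. Within number 2 the medians were -0.021 for the cell cycle, 0.21 for apoptosis regulators, 0.23 for ribosomal proteins, 0.098 for ribosome biogenesis and 0.19 for the respiratory chain. All 25 ribosomal protein genes and 22 of the 23 respiratory chain genes were higher in p65KO 2 than in c-RelKO 2. At most 2 genes of any of these lists were higher, and at most 1 lower, without overlap, against 17.0% and 19.7% of all tested genes. The cell cycle median was -0.12 without c-RelKO 3, and the respiratory chain median was 0.15 without p65KO 1. Cox7a2, a cytochrome oxidase subunit gene, was the largest without overlap, with 39.5 and 56.4 adjusted RPKM in p65KO aTregs and 75.5 and 89.0 in c-RelKO aTregs. Among apoptosis regulators, Pmaip1, the gene of the death inducer Noxa, had 12.8 and 14.3 in p65KO aTregs and 9.11 and 9.93 in c-RelKO aTregs, and Bcl2l1, the gene of the survival factor Bcl-xL and a known NF-kB target, had 13.1 and 16.9 in p65KO aTregs and 14.0 and 7.34 in c-RelKO aTregs. Bcl2l1 overlapped between the mutants. Cholesterol biosynthesis genes had 15 of 17 below 0 and a median of -0.074 (-0.022 within number 2). Of the 17, 5 were lower and 0 higher without overlap, against 19.7% and 17.0% of all tested genes. Srebf2, the transcription factor gene of cholesterol biosynthesis, had 43.5 and 43.8 in p65KO aTregs and 46.5 and 63.2 in c-RelKO aTregs. Of 8 tested Gimap genes, GTPases of lymphocyte survival, 3 were higher and 0 lower without overlap, against 17.0% and 19.7% of all tested genes. The Gimap median was 0.12 (0.16 within number 2). Gimap7, among the 3, had 179 and 202 in p65KO aTregs and 152 and 125 in c-RelKO aTregs. Leaving out at least 1 of the 4 libraries turned the sign of the median for the upstream NF-kB, resting, early response, chemokine, chemokine receptor, integrin, interleukin 2 and STAT, cell cycle, interferon, cholesterol, ribosomal protein, ribosome biogenesis and respiratory chain lists. The resting list, for example, had a median of 0.17 without c-RelKO 3, and the cholesterol list one of 0.033.

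**Figure D5:**
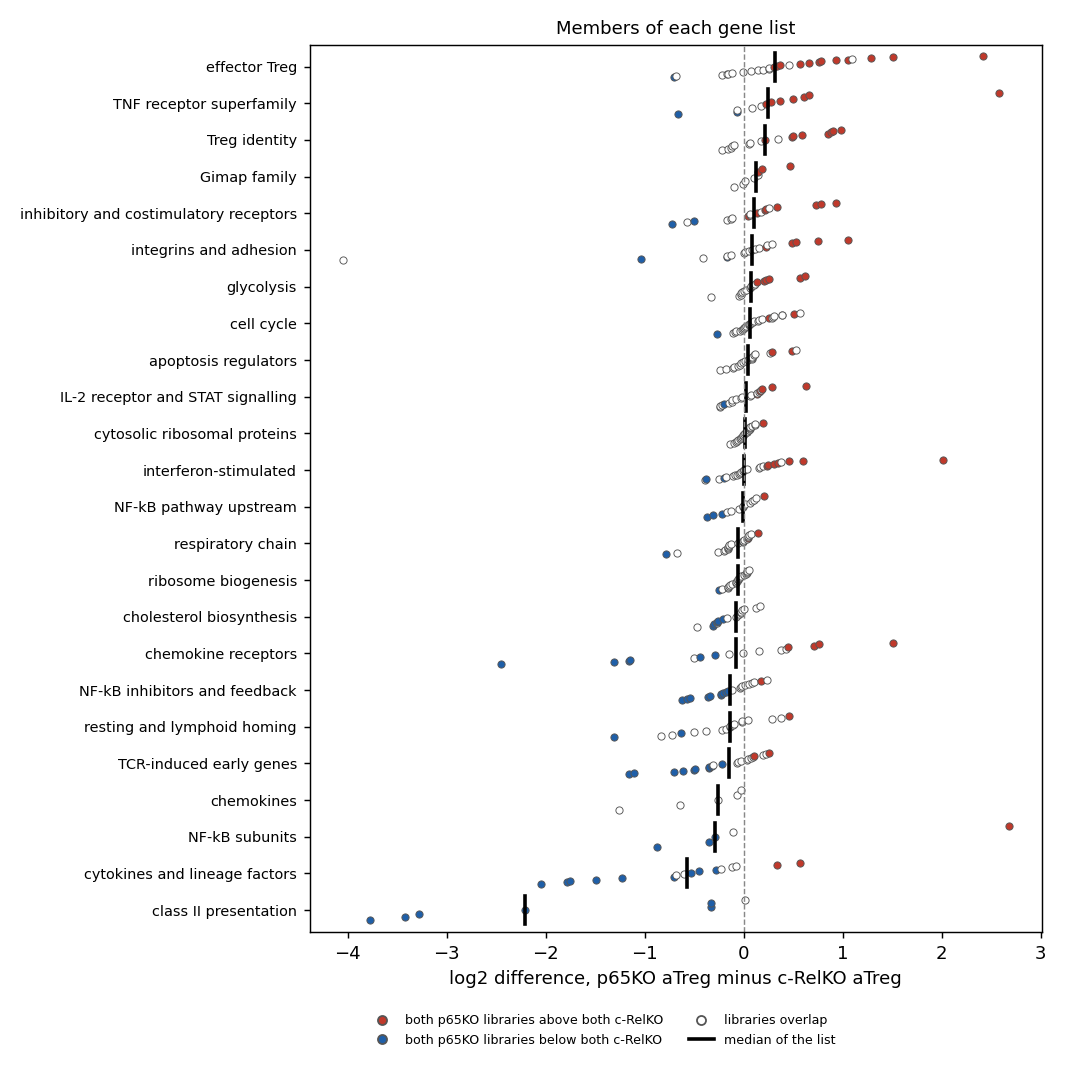
Log2 difference, p65KO minus c-RelKO aTregs, of each tested member of the 24 gene lists, ordered by list median (black bars). Red points are genes with both p65KO libraries above both c-RelKO libraries, blue points the reverse and open points overlap; the effector Treg, TNF receptor and Treg identity lists lie furthest right by median, and class II presentation furthest left.

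Resting Tregs of the same genotypes were also compared. Between p65KO and c-RelKO rTregs 0 genes passed in limma, with 215 at an unadjusted p under 0.05 (2.02%) and a lowest adjusted p of 0.568. The libraries did not overlap in 30.7% of tested genes in rTregs and in 36.6% in aTregs. The test of whether the difference between the mutants itself differed between aTregs and rTregs gave 0 genes, with 219 at an unadjusted p under 0.05 (2.06%) and a lowest adjusted p of 1.00. A difference confined to activated cells was thus not shown for any gene. Side by side, Penk had log2 differences of 1.96 in aTregs and 0.032 in rTregs, and Tnfrsf8 of 2.57 in aTregs and 0.11 in rTregs. Rel had 2.68 in aTregs and 1.95 in rTregs, Relb -0.88 in aTregs and -0.84 in rTregs, and Il10ra 0.63 in aTregs and 0.72 in rTregs. The list medians in rTregs were 0.30 for Treg identity, 0.13 for the TNF receptor superfamily, 0.068 for effector Treg genes and -0.48 for class II presentation. The summed class II level was 117 and 103 adjusted RPKM in p65KO rTregs and 308 and 103 in c-RelKO rTregs, so by this sum only c-RelKO rTreg 1 stood high.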

How the data were processed

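RNA of sorted Tregs was sequenced after library preparation with a TruSeq v2 kit, per the labels' protocols. The authors used STAR, the mm10 build and DESeq2 1.10.1, per the submitters' processing notes, which give no order or role. The deposited table gives per gene and library a value on the RPKM scale that can be negative, hence adjusted in another way than by length and depth; what was done is not given in the sources used here. Rows without library values (21, with dates for names) were left out, and values below 0 were set to 0. Only the sorted libraries were used, and libraries outside that table were not analysed here.

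Genes with at least 1 adjusted RPKM in at least 2 of the 13 sorted libraries were fitted with limma 3.58.1 (R 4.3.3) on log2(value + 0.5), with 1 mean per genotype and state, a mean-variance trend, two-sided tests and Benjamini-Hochberg adjustment over all 10656 genes, at 0.05. The fit covers all 13 libraries, so that the groups share 1 estimate of the spread. Contrasts were p65KO minus c-RelKO in aTregs, each mutant minus WT, p65KO minus c-RelKO in rTregs, and the difference between the aTreg and rTreg contrasts. The fit was run on simulated data with independent normal noise around the same gene mean in all libraries. Changes were given only to genes with a mean of at least 5 adjusted RPKM. It called 39 of 50 genes given a log2 change of 1 and 50 of 50 given a change of 2, with 12 false calls. That noise holds no effect of the replicate number, so the rates need not hold for these libraries, nor for genes at lower levels. Deposited p-values and log2 fold changes of the authors' own comparisons are quoted as such. Named genes are those of largest difference without overlap and a mean of at least 5 in the higher group (12 in each direction), the NF-kB subunits and Foxp3, the 4 tested members of largest moderated t from each list, and the 6 of largest difference from each WT activation list, apart from the 11 genes of lowest adjusted p, Tnip3, Siglech, Itgax, Lyz2 and the marker genes, which were picked after their values were seen. The genes compared and the lists were chosen with earlier results of these data known. Alternatives were the pseudocount, the filter, the scaling, zeros for tied values, a replicate block, and fits without 1 library each. Replicate numbers were not taken to pair libraries. Tables were handled with Python 3.11.15 and pandas 2.3.3.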

Additional observations from a re-analysis of the deposited data

How the results depend on the processing

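The count of 0 genes between p65KO and c-RelKO aTregs stood with pseudocounts of 0.1 and 1, a filter at 3 RPKM, median-of-ratios scaling, a robust variance, fits of fewer groups, without both libraries numbered 3, and with tied values set to 0 (chosen after seeing the data). Without the filter it was 5 of 14818 genes (Frmd5, Bace2, Pparg, Cobl and F13a1, all higher in p65KO), and leaving out 1 library gave 0 to 2: Ifi208 without p65KO 1, and Klrg1 and Tnfrsf8 without c-RelKO 2. For p65KO against WT aTregs it was 1 without the filter, and 0 to 2 with 1 library left out. For c-RelKO against WT aTregs it was 40 without the filter, and 0 to 13 with 1 library left out, 13 being without c-RelKO 2 and 2 without WT 3. For the difference between aTregs and rTregs it was 2 without the filter and 0 with any 1 library left out. Where a library left an arm with 1 sample, that sample was assumed to vary like the other groups. With the replicate block the counts were 46 for p65KO against c-RelKO (3 higher and 43 lower), 1 for p65KO against WT, 44 for c-RelKO against WT and 8 for the difference between states. H2-Eb1, H2-Ab1, H2-Aa, Tyrobp and Relb were among the 43 and Klrg1 among the 3. The numbers were not taken to pair the libraries, since the labels do not say what a number marks. Library codes in the file headers do run in order of the number, and same-numbered libraries share tied values. Whether the fit with or without the block is the better one was not decided. Over 26 pairs the correlation of same-numbered deviations ran from -0.49 to 0.44, and was -0.0495 between p65KO and c-RelKO aTregs. Against WT aTregs it was 0.25 and 0.11 for p65KO aTregs, and 0.14 and 0.32 for c-RelKO aTregs. In groups of 2 libraries the deviations mirror each other, so some values repeat. These correlations cannot decide whether the numbers pair libraries.

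Some named genes without a call turned their sign. With the replicate block this held for Ccr7 (0.15), Gar1 (0.0049), Nolc1 (0.032), Rpl13 (0.24), Rpl37 (0.13) and Rrp9 (0.017). Without p65KO 1 it held for Ccl5 (0.084), Cox5a (0.14), Cox5b (0.15), Gar1 (0.073) and Ndufa1 (0.17), and without p65KO 2 for Bbc3 (0.039) and Ifi27l2a (-0.087). Without c-RelKO 2 it held for Ccl5 (0.97), Cxcl10 (0.11), Rpl32 (-0.064) and Xcl1 (0.19). Without c-RelKO 3, and also without both libraries numbered 3, it held for Aurkb (-0.012), Gar1 (0.062), Nolc1 (0.0018) and Rpl13 (0.065). Over all fits with 1 library left out, these genes ranged from -0.012 to 1.16 (Aurkb), -0.53 to 0.039 (Bbc3), -1.49 to 0.97 (Ccl5), -0.53 to 0.14 (Cox5a), -0.67 to 0.15 (Cox5b), -0.26 to 0.11 (Cxcl10), -0.38 to 0.073 (Gar1), -0.087 to 0.84 (Ifi27l2a), -1.52 to 0.17 (Ndufa1), -0.28 to 0.0018 (Nolc1), -0.27 to 0.065 (Rpl13), -0.064 to 0.30 (Rpl32) and -2.7 to 0.19 (Xcl1). The cause was not tested. The depth of single libraries is unknown, which limits what can be said of low values.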
